A study of Mus musculus with 2 samples.

Results

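Genes of the fibronectin, elastic fibre and matricellular matrix were followed in the mouse embryonic heart, 10 in all, from their gene levels down to the alternative exons of their transcripts. They are Fn1, Tnc, Postn, Fbln1, Fbln2, Eln, Fbn1, Fbn2, Sparc and Lum, chosen by name and found by gene identifier and GENCODE symbol among 43346 mouse genes, with all 10 present in the tables. Total RNA above 200 nt was sequenced from hearts of embryos of strain B6NCrl, a C57BL/6N substrain, at embryonic day 10.5 (E10.5), when the looped heart beats and its valve cushions form. There was 1 group of 2 libraries from 10 ng of RNA each with ERCC spike-ins, a pool of 51 embryos (replicate 2) and a pool of 69 embryos (replicate 1), both of mixed sex. The labels name no treatment and no engineered allele, and a pool averages over its embryos.

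Fibronectin is a dimer that cells pull through integrins into fibrils, a scaffold on which later matrix proteins settle, and mouse embryos that lack it fail in heart and vessel formation. Its mRNA is spliced at 3 places, the extra domains EIIIA and EIIIB and the variable region, and the plasma form made by liver lacks both extra domains. Fibrillins build microfibrils that receive elastin, fibulins link these to other matrix, and matricellular proteins such as tenascin C, periostin and SPARC tune how cells hold to the matrix. Lumican is a small leucine-rich proteoglycan that binds collagen fibrils.

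The libraries held 41070978 expected counts in replicate 2 and 45205713 in replicate 1, of which 39786163 and 43295923 lay on mouse genes. With 2 pools there was no test, so a gene was said to differ if it had a mean of at least 50 counts, a TMM-scaled ratio of 2-fold or beyond and deposited TPM intervals that lay apart. By that rule 997 of 14124 genes differed, 326 higher and 671 lower in replicate 2, and the split was 860 higher and 436 lower with spike-in scaling, which moved the median log2 ratio of all tested genes to 0.34, against 0.01 with TMM. Markers of heart muscle summed to 28818 TPM in replicate 2, against 17808 TPM in replicate 1, and all 6 were present. Liver markers summed to 53.8 TPM in replicate 2, against 1324 TPM in replicate 1, with all 8 differing, and second heart field markers to 9.01 TPM and 34.1 TPM, with all 3 differing. The labels do not say whether the pools were dissected on different days, and they give both pools the same donor identifier.

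The sequences below are the alternative segments on which the transcript results turn, copied from GENCODE M21 transcripts on GRCm38 (mm10), in the sense of the mRNA. In each, 2 bases precede the first whole codon. They show what protein the heart adds when a segment is kept: EIIIA encodes 90 residues, EIIIB 91, the first part of the variable region 25, and the periostin exons 27 and 28. Capitals in EIIIA mark the codons of glutamate-aspartate-glycine-isoleucine, the start of a motif that integrins bind in human fibronectin. Capitals in the variable region mark the codons of leucine-aspartate-valine, the core of its binding site for integrin alpha4 beta1. The other segments have no marked part. The fibulin 2 exon encodes 47 residues with 6 cysteine codons, the number carried by an epidermal growth factor-like module.
Fn1 EIIIA, chr1:71603660-71603929, minus strand: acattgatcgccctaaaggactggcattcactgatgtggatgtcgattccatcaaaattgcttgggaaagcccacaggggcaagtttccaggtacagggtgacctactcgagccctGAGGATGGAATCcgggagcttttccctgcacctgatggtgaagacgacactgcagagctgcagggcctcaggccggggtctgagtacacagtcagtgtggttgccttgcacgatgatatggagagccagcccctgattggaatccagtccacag
Fn1 EIIIB, chr1:71613763-71614035, minus strand: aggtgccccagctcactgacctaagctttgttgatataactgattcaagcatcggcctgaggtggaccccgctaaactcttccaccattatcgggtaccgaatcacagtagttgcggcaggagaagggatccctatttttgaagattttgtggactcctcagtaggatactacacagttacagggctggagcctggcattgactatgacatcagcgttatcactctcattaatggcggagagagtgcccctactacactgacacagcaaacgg
Fn1 variable region, first part, chr1:71597673-71597747, minus strand: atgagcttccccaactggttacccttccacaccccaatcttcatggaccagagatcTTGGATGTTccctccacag
Postn 81-nt exon, chr3:54380412-54380492, plus strand: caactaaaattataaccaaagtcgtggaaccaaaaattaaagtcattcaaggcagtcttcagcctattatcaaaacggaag
Postn 84-nt exon, chr3:54385671-54385754, plus strand: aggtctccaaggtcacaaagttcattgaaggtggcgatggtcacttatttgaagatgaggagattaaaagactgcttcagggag
Fbln2 141-nt exon, chr6:91259630-91259770, plus strand: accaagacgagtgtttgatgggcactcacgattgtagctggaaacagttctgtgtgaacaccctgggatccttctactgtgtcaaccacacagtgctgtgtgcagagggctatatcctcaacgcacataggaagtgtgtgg

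All 10 genes were expressed in both pools, over a range from the abundant Sparc and Fn1 to a low Eln. Together they held 1779 TPM in replicate 2, against 1619 TPM in replicate 1, that is 0.214% and 0.199% of all TPM on nuclear coding genes (0.207% ± 0.0108, SD, n = 2). Sparc made up 55.8% of that sum in replicate 2 and 54.1% in replicate 1, and Fn1 21.0% and 18.3%. The 10 genes are ordered by level in the plot of TPM by pool. TPM, a length-scaled share of all transcripts, allows levels to be compared between genes, with 1 limit. The TPM of a gene includes its noncoding models, and their part was unequal. They held 45.6% of Sparc TPM in replicate 2 and 44.3% in replicate 1, 40.9% and 49.9% for Fn1, and 40.1% and 42.1% for Fbln2. For Eln, Fbn2, Lum and Tnc they held 0%. Levels over coding models alone were not compared.

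**Figure D1:**
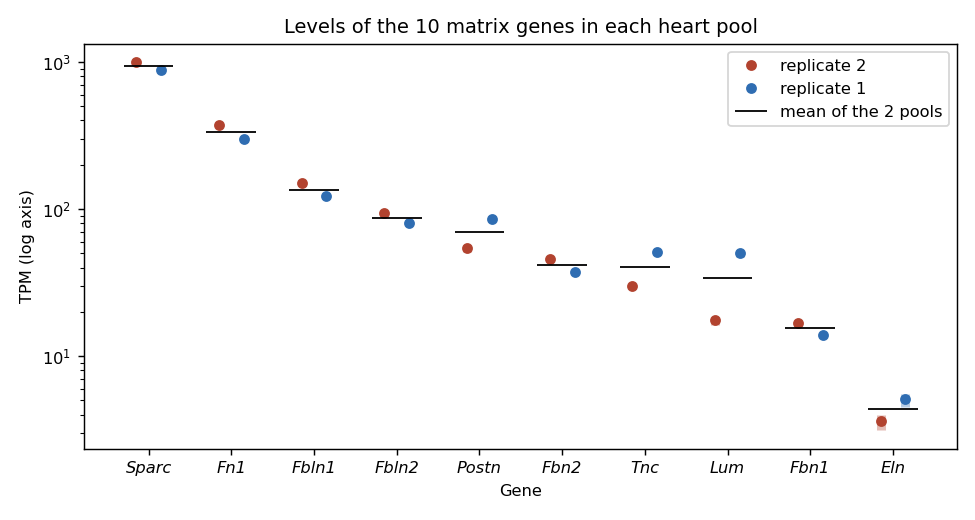
TPM (log axis) of each of the 10 genes in replicate 2 (red, left of each pair) and replicate 1 (blue), with the mean of both pools as a line and the deposited TPM interval as a pale bar, which is hidden by the point for most genes. Sparc stands highest at 993 and 877 TPM and Eln lowest at 3.63 and 5.12 TPM, and Lum has the widest gap between its points.

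Fibronectin itself, Fn1 (ENSMUSG00000026193.11, chr1:71585520-71653200, minus strand), reached 373 TPM in replicate 2, against 297 TPM in replicate 1 (335 ± 54.0 TPM, SD, n = 2). That put it at rank 399 by mean TPM among 21461 coding genes. Its counts were 62059 in replicate 2 and 50351 in replicate 1, the largest of the 10 genes in each pool. The log2 ratio of replicate 2 over replicate 1 was 0.55 on TMM-scaled counts, below 2-fold, and 0.33 on TPM. TPM divides by the abundance-weighted transcript length, which for Fn1 was 6159 nt in replicate 2 and 5671 nt in replicate 1. The scales also differ for all tested genes, with a median log2 ratio of 0.01 on TMM-scaled counts and -0.09 on TPM. Apol7d, which lies on the opposite strand and overlaps Fn1, held 39 and 51 counts, and the use of strand in counting is not stated by any source used here.

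The fibulins bind fibronectin, fibrillin and elastin and are deposited in the valve cushions. Fbln1 (ENSMUSG00000006369.10, chr15:85205949-85286535) stood at 149 TPM in replicate 2, against 122 TPM in replicate 1 (136 ± 19.6). Fbln2 (ENSMUSG00000064080.8, chr6:91212455-91272540) stood at 94.5 TPM in replicate 2, against 80.7 TPM in replicate 1 (87.6 ± 9.70). The TPM ratio of Fbln1 to Fbln2 was 1.58 in replicate 2 and 1.51 in replicate 1, and their ranges over the pools did not overlap. This ratio includes noncoding models, which held 40.1% of Fbln2 TPM in replicate 2 and 42.1% in replicate 1. For Fbln1 they held 0% and 0.123%. On the scale of counts not divided by length the mean log2 ratio of this pair shrank to 0.12, against 0.63 on TPM. Both fibulins were a little higher in replicate 2, with log2 ratios of 0.40 for Fbln1 and 0.35 for Fbln2.

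Of the fibrillins, the microfibril subunits, Fbn2 led Fbn1 at this stage. Fbn2 (ENSMUSG00000024598.8) had 46.0 TPM in replicate 2, against 37.5 TPM in replicate 1 (41.8 ± 6.02). Fbn1 (ENSMUSG00000027204.9, chr2:125300594-125507993), the gene mutated in Marfan syndrome, had 16.9 TPM in replicate 2, against 14.0 TPM in replicate 1 (15.4 ± 2.08). The ratio of Fbn2 to Fbn1 was 2.72 in replicate 2 and 2.69 in replicate 1, a mean log2 ratio of 1.43 ± 0.014, the smallest spread of the 4 pairs compared. Their log2 pool ratios were alike, 0.40 for Fbn2 and 0.34 for Fbn1. Both genes have an overlapping gene on the opposite strand with few counts, Gm26507 with 104 and 120 for Fbn2 and Gm9913 with 28 and 40 for Fbn1.

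Elastin, the core of the elastic fibre, was the lowest of the 10. Eln (ENSMUSG00000029675.9, chr5:134702593-134747323) had 3.63 TPM in replicate 2, against 5.12 TPM in replicate 1 (4.38 ± 1.05), at rank 10337 among coding genes. Its counts were 247 in replicate 2 and 387 in replicate 1, and its log2 ratio of -0.40 had the widest counting error of the group. The single Eln transcript of the tables was 2583 nt long, while the M21 model has 3853 nt, so its length-scaled level refers to the shorter model. The same holds for Lum, at 2075 nt against 2448 nt in M21, and Fbn2, at 10480 nt against 11041 nt.

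Among the matricellular genes, Sparc was the highest and Tnc the lowest. Sparc (ENSMUSG00000018593.8, chr11:55394500-55423183), which encodes a collagen-binding glycoprotein also called osteonectin, had 993 TPM in replicate 2, against 877 TPM in replicate 1 (935 ± 82.1), rank 98 among coding genes. The TPM ratio of Sparc to Fn1 was 2.66 in replicate 2 and 2.95 in replicate 1, whereas before division by length Fn1 had more counts than Sparc in both pools. Postn (ENSMUSG00000027750.12, chr3:54361109-54391037), which encodes periostin and is made by cushion mesenchyme and fibroblasts, had 54.7 TPM in replicate 2, against 86.0 TPM in replicate 1 (70.3 ± 22.1). Tnc (ENSMUSG00000028364.11, chr4:63959785-64047015), which encodes the anti-adhesive tenascin C, had 29.9 TPM in replicate 2, against 50.7 TPM in replicate 1 (40.3 ± 14.7). Both were lower in replicate 2, with log2 ratios of -0.64 for Postn and -0.66 for Tnc, short of 2-fold. The ratio of Tnc to Postn held at 0.547 in replicate 2 and 0.589 in replicate 1. On counts not divided by length the order of this pair turned over, to a mean log2 ratio of 0.43, against -0.82 on TPM.

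Lumican was the only one of the 10 genes that differed between the pools. Lum (ENSMUSG00000036446.4, chr10:97565128-97572703) had 17.7 TPM in replicate 2, against 49.9 TPM in replicate 1 (33.8 ± 22.8), with 957 and 2999 counts. It was 2.64-fold lower in replicate 2, a log2 ratio of -1.40, and the 95% counting interval of the ratio ran from 0.352 to 0.408. A ratio that far from 1 in either direction was found in 3.59% of tested genes. The interval takes in counting error alone, because without molecular identifiers the reads are not separate molecules.

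By level, 6 of the 9 neighbouring pairs in the order Sparc, Fn1, Fbln1, Fbln2, Postn, Fbn2, Tnc, Lum, Fbn1, Eln had ranges over the pools that did not overlap. The exceptions were Fbln2 with Postn, Fbn2 with Tnc, and Tnc with Lum. In replicate 2 alone the order was as given. In replicate 1 alone Postn stood above Fbln2, and Tnc and Lum stood above Fbn2. The order takes in noncoding models and could differ over coding models alone.

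In the ratio of the pools the 10 genes fell on both sides of 0, with 6 higher and 4 lower in replicate 2, while 51.6% of all tested genes were higher there. Fn1, Fbln1, Fbn2, Fbln2, Fbn1 and Sparc were the higher ones, with log2 ratios between 0.24 and 0.55. Eln, Postn, Tnc and Lum were the lower ones, between -0.40 and -1.40. One of the 10 differed, beside 7.06% of all tested genes, 2.31% higher and 4.75% lower in replicate 2, so the count is near the background and says nothing particular about the group. The median log2 ratio was 0.29, beside 0.01 for all tested genes, whose quartiles were -0.22 and 0.26. The deposited TPM intervals were apart for all 10 genes and for 52.3% of tested genes.

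**Figure D2:**
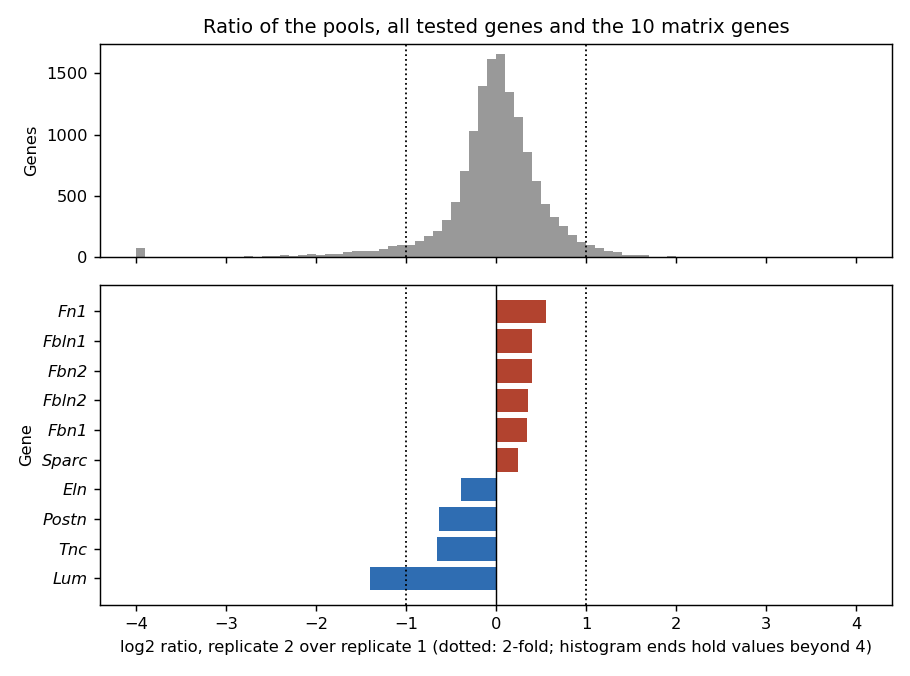
Upper panel, number of tested genes by log2 ratio of replicate 2 over replicate 1, on TMM-scaled counts. Lower panel, the same ratio for the 10 matrix genes, with dotted lines at 2-fold. Lum, at -1.40, is the only bar past a dotted line, and Fn1, at 0.55, is the longest bar to the right.

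In bulk tissue, fewer cells of a type and less RNA per cell cannot be told apart. Marker lists lay on both sides of 0, as the matrix genes did. Among all tested genes, 51.6% were higher in replicate 2 on TMM-scaled counts and 7.06% differed. Somite and limb mesenchyme markers summed to 12.2 TPM in replicate 2, against 26.7 TPM in replicate 1, with 3 of 4 differing, and none of the 4 was at 0. Cushion mesenchyme markers summed to 309 TPM in replicate 2, against 281 TPM in replicate 1, so their sum was higher in replicate 2 while 4 of the 6 genes were lower there, with a median log2 ratio of -0.36. Hapln1 and Vcan were the higher ones, with log2 ratios of 0.63 and 0.61, and Twist1 alone differed, at 6.39 TPM in replicate 2, against 14.6 TPM in replicate 1. Foregut markers summed to 5.37 TPM in replicate 2, against 28.3 TPM in replicate 1, and neural crest markers to 0.890 and 2.73 TPM, with Foxd3 at 0 counts in replicate 2. Epicardial markers summed to 252 TPM in replicate 2, against 271 TPM in replicate 1, and none of 6 differed. On the higher side, all 6 heart muscle markers were higher in replicate 2, with a sum 1.62 times that of replicate 1, and Myh7 and Nppa differed. All 6 red cell markers were also higher there, with a sum ratio of 1.24 and none differing. The single markers given here were named after their values were seen. Endothelial and endocardial markers summed to 258 TPM in replicate 2, against 186 TPM in replicate 1, with 7 of 7 higher and none differing. The part of these cell types, and of the liver and second heart field RNA given above, in the ratios of the matrix genes was not tested.

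Fibronectin transcripts were divided over 17 models, and a coding form with both extra domains led. The only model with EIIIB also holds EIIIA, so their presence together is set by the models and was not measured. Fn1-201, which has 46 exons and is the only model with EIIIB, held 50.5% of Fn1 TPM in replicate 2 and 45.9% in replicate 1 (48.2% ± 3.24, SD, n = 2). Fn1-202, annotated as a retained intron, held 24.3% in replicate 2 and 28.9% in replicate 1 (26.6% ± 3.26). It begins inside the gene, has 17 exons and keeps a 626-nt intron just before the variable region. Because it shares most of its exons with Fn1-201, the division of reads between them is an estimate. TPM weights the short model up, and by counts Fn1-201 held 68.4% in replicate 2 and 67.6% in replicate 1, while Fn1-202 held 15.7% and 20.3%. All 8 noncoding models together held 40.9% of Fn1 TPM in replicate 2 and 49.9% in replicate 1.

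**Figure D3:**
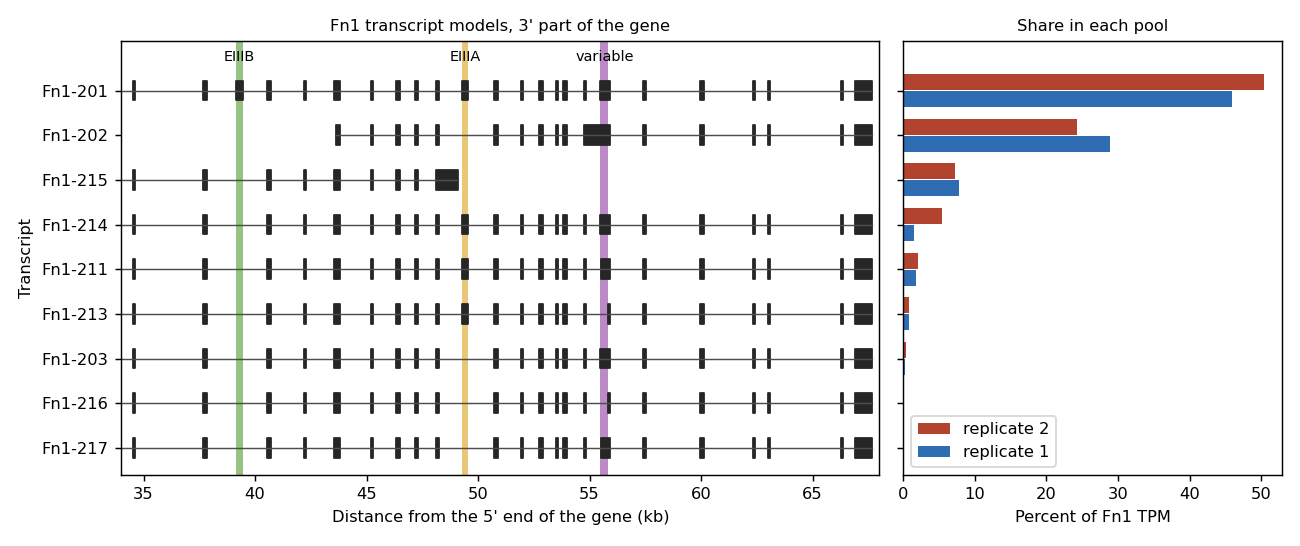
Left, exons (blocks) of 9 of the 17 Fn1 models over the 3′ part of the gene, by distance in kb from the 5′ end, with EIIIB, EIIIA and the variable region shaded. Right, percent of Fn1 TPM held by each in replicate 2 (red, upper bar) and replicate 1 (blue). Fn1-201, with all 3 segments, leads at 50.5% and 45.9%, and Fn1-202, which starts downstream of EIIIB and skips EIIIA, follows at 24.3% and 28.9%.

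As divided over the models, most Fn1 TPM that spans EIIIA kept it, and so did nearly all TPM of coding models. Inclusion, the TPM of transcripts that hold the segment over the TPM of those that reach both its flanks, was 70.4% in replicate 2 and 63.2% in replicate 1 (66.8% ± 5.13). Over coding transcripts alone it was 99.4% in replicate 2 and 99.6% in replicate 1. No coding model holds EIIIB and lacks EIIIA, so the coding value cannot count skipping in such an mRNA. Whether the reads given to Fn1-202 come from such an mRNA was not tested. The skipping form was almost wholly Fn1-202, which held 98.6% of EIIIA-skipping TPM in replicate 2 and 99.3% in replicate 1. Other skipping models, which include those without both extra domains, summed to 1.27 TPM in replicate 2, against 0.630 TPM in replicate 1.

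Over coding models the inclusion of EIIIB was below that of EIIIA in both pools, with the limit given above for EIIIA. Its inclusion over all transcripts was 76.2% in replicate 2 and 79.2% in replicate 1 (77.7% ± 2.15), and over coding transcripts 85.5% and 91.5%. The coding models that skip it summed to 31.9 TPM in replicate 2, against 12.7 TPM in replicate 1. Most of that gap lay in Fn1-214, which keeps EIIIA and the variable region and stood at 20.1 TPM in replicate 2, against 4.35 TPM in replicate 1. The deposited intervals of Fn1-214 were apart, 13.5 to 25.7 TPM in replicate 2, against 2.30 to 9.68 TPM in replicate 1.

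As divided over the models, nearly all Fn1 TPM that spans it kept the part of the variable region with the leucine-aspartate-valine codons. Its inclusion was 96.7% in replicate 2 and 96.9% in replicate 1 (96.8% ± 0.105). The second part, at chr1:71597388-71597672 and 95 residues long, was included at 96.4% in replicate 2 and 94.4% in replicate 1. The values over all transcripts count Fn1-202 as holding the region, which it reaches through its retained intron. Over coding transcripts alone, which leave it out, inclusion of the first part was 95.2% in replicate 2 and 94.8% in replicate 1. The only model with EIIIB holds this part, so a form with EIIIB that lacks it could not be counted.

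Of the Postn TPM that spans each exon, most lacked the 84-nt exon and most lacked the 81-nt exon, in both pools. The 81-nt exon was included at 40.7% in replicate 2 and 33.7% in replicate 1 (37.2% ± 4.91). The 84-nt exon was included at 28.2% in replicate 2 and 24.9% in replicate 1 (26.5% ± 2.35). Postn-204, which lacks both, held 23.8% of Postn TPM in replicate 2 and 39.2% in replicate 1, or 13.0 TPM and 33.7 TPM. Postn-203 held 39.4% in replicate 2 and 32.6% in replicate 1, and Postn-201 25.3% and 24.0%. The deposited intervals of Postn-204 were apart, 8.40 to 17.7 TPM in replicate 2, against 28.7 to 38.4 TPM in replicate 1, while those of Postn-203 overlapped.

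Tenascin C was split almost evenly between a pair of forms. Tnc-203, which holds a 273-nt exon of 91 residues at chr4:63984460-63984732, stood at 15.5 TPM in replicate 2, against 25.6 TPM in replicate 1. Tnc-204, which lacks it and has an upstream exon of its own, stood at 14.1 TPM in replicate 2, against 24.6 TPM in replicate 1. Inclusion of the 273-nt exon was 52.5% in replicate 2 and 51.0% in replicate 1 (51.7% ± 1.08). Because Tnc-203 and Tnc-204 differ in the upstream exon as well, this value does not separate the choice of either exon. Both forms were lower in replicate 2.

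Each fibulin had the same leading form in both pools. The 141-nt exon of Fbln2 was nearly always skipped, with inclusion of 2.20% in replicate 2 and 0.745% in replicate 1. Of Fbln2 TPM, Fbln2-202 held 57.4% in replicate 2 and 56.6% in replicate 1, and the retained-intron model Fbln2-206 held 38.9% and 39.8%. By counts Fbln2-202 held 79.8% and 80.1%, and Fbln2-206 held 18.0% and 18.8%. Fbln1 ends in alternative last exons, and Fbln1-202 was 11.0 times as abundant as Fbln1-201 in each pool.

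The short retained-intron model Sparc-205 held 45.6% of Sparc TPM in replicate 2 and 44.1% in replicate 1, but 22.9% and 21.6% of its counts. The coding models with 10 exons, Sparc-201 and Sparc-202, held 24.7% and 18.9% of Sparc TPM in replicate 2, and 24.3% and 21.8% in replicate 1. By counts they led, with 42.6% and 29.8% in replicate 2, and 40.8% and 33.5% in replicate 1. Fbn1-201 held 97.0% of Fbn1 TPM in replicate 2 and 100% in replicate 1. Eln, Fbn2 and Lum had 1 transcript each in the tables, so they gave no isoform shares.

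**Figure D4:**
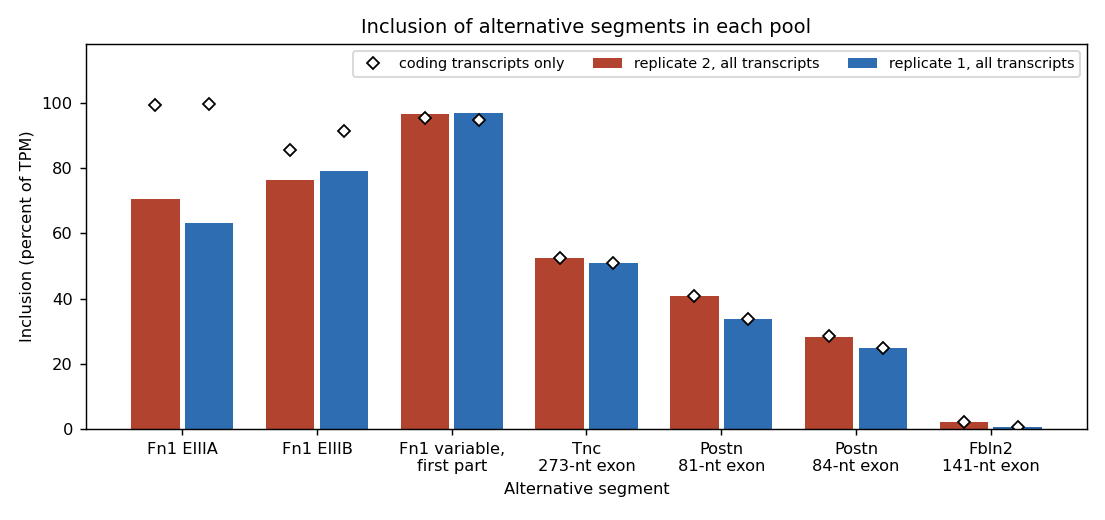
Inclusion in percent of TPM of 7 alternative segments in replicate 2 (red, left bar) and replicate 1 (blue) over all transcripts, with diamonds for coding transcripts only. EIIIA has bars of 70.4% and 63.2% under diamonds of 99.4% and 99.6%, and the 141-nt exon of Fbln2 is close to 0 at 2.20% and 0.745%.

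Receptors and assembly proteins of fibronectin were all expressed, with a median log2 ratio of 0.24. On TMM-scaled counts 10 of 11 were higher in replicate 2, beside 51.6% of all tested genes, and by deposited TPM 8 of 11, beside 39.6%. Itgb1, the beta subunit of most fibronectin receptors, had 266 TPM in replicate 2, against 217 TPM in replicate 1. Itga5, its partner in the main fibronectin receptor, had 79.0 TPM and 47.9 TPM, and Itgav had 60.9 TPM and 40.6 TPM. One of the 11 differed, beside 7.06% of all tested genes. It was Tgm2, a transglutaminase that cross-links fibronectin, at 217 TPM in replicate 2, against 112 TPM in replicate 1 (log2 ratio 1.06). Its TPM values were less than 2-fold apart, so the call rests on TMM-scaled counts.

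Elastic fibre and microfibril partners were split, with 17 of 19 at 50 counts or more and a median log2 ratio of 0.14. On TMM-scaled counts 9 of the 17 were higher and 8 lower in replicate 2, beside 51.6% of all tested genes higher. With spike-in scaling 12 were higher (70.6%), beside 81.4%. The 4 most abundant were Emilin1 at 147 TPM in replicate 2, against 140 TPM in replicate 1, Mfap2 at 135 TPM and 194 TPM, Emilin2 at 98.0 TPM and 55.3 TPM, and Efemp2, a fibulin needed for elastic fibres, at 53.7 TPM and 77.9 TPM. Only Mfap4, a microfibril-associated protein, differed, beside 7.06% of all tested genes. It had 19.2 TPM in replicate 2, against 56.3 TPM in replicate 1 (log2 ratio -1.43), a ratio close to that of Lum.

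Of 16 other matricellular genes, 12 had 50 counts or more, with a median log2 ratio of 0.12. On TMM-scaled counts 7 were higher and 5 lower in replicate 2, beside 51.6% of all tested genes higher. By deposited TPM 6 of the 12 were higher, beside 39.6% of all tested genes, and with spike-in scaling 9, beside 81.4%. Fstl1 led at 318 TPM in replicate 2, against 262 TPM in replicate 1, followed by Ccn1 at 69.9 TPM and 65.3 TPM, Tgfbi at 42.3 TPM and 55.0 TPM, and Thbs4 at 50.8 TPM and 31.6 TPM. Smoc2, a relative of Sparc, was the only one that differed, beside 7.06% of all tested genes. It had 7.83 TPM in replicate 2, against 25.1 TPM in replicate 1 (log2 ratio -1.58). Tnn, which encodes another tenascin, had 0 counts in both pools, which allows up to 3 counts in each.

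Of 9 other small leucine-rich proteoglycan genes, 4 had enough counts. All 4 were higher in replicate 2, where Lum was lower, beside 51.6% of all tested genes on TMM-scaled counts. None of the 4 differed, beside 7.06% of all tested genes, and their median log2 ratio was 0.59. Dcn, which encodes decorin, had 38.6 TPM in replicate 2, against 35.8 TPM in replicate 1, Bgn (biglycan) 25.8 TPM and 15.7 TPM, Fmod 9.51 TPM and 7.93 TPM, and Ogn 1.84 TPM and 1.10 TPM. In replicate 2 Lum, at 17.7 TPM, was below Dcn and Bgn, and in replicate 1, at 49.9 TPM, it was above both. Kera, which encodes keratocan of the cornea, had 1 count in replicate 2 and 2 in replicate 1.

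**Figure D5:**
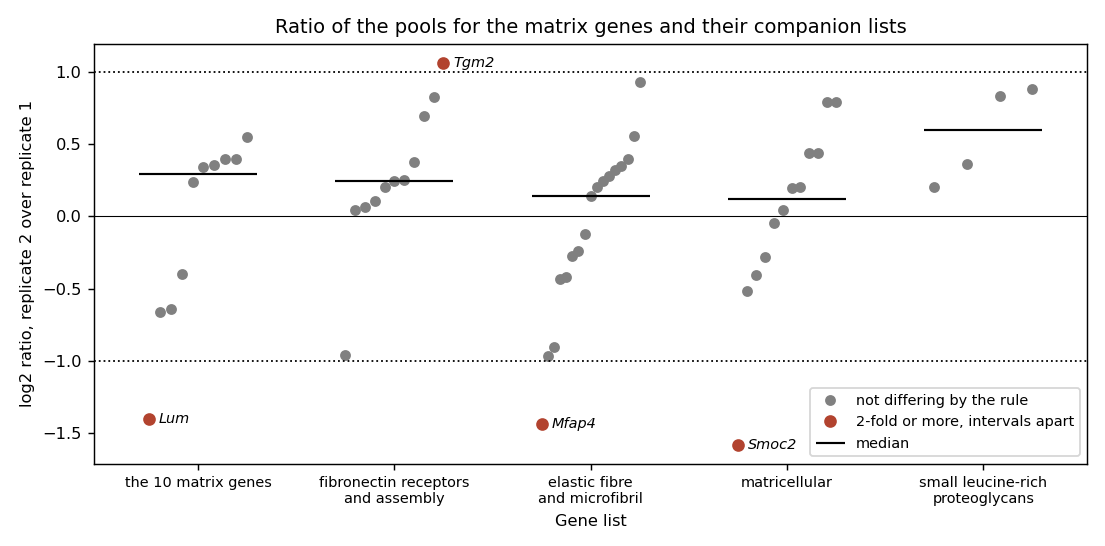
Log2 ratio of replicate 2 over replicate 1, on TMM-scaled counts, for the 10 matrix genes and the tested genes of 4 companion lists. The list median is a line, and dotted lines mark 2-fold. Red points meet the rule for differing: Lum, Mfap4 and Smoc2 lie below the lower line at -1.40, -1.43 and -1.58, and Tgm2 lies above the upper one at 1.06.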

How the data were processed

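Values came from the gene and transcript tables of 2 libraries. The authors deposited, per feature, an expected count with its posterior mean (both estimated reads), TPM, FPKM, lengths, bounds of a TPM interval (used as a score), and the percent of a gene's TPM held by each transcript. Per the labels, the assembly was mm10 and the annotation GENCODE M4. No source used here names the quantifying program or says whether strand was used. Names and exons were taken from GENCODE M21; 42462 of 43346 genes had a name there, and 48 of 53 transcripts of the 10 genes matched in length.

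Rounded expected counts were scaled by TMM (edgeR 4.0.16, R 4.3.3), with a prior count of 0.5. A count of 0 allows up to 3 counts. No p-value was computed, since there is 1 group of 2 pools. Members, lists and rules were chosen with earlier results of these data known. Named genes were the 10 members and, of each companion list, the 4 highest by mean TPM, the 2 largest ratios among those differing, and up to 3 with under 3 counts in each pool. Inclusion was computed over transcripts that reach both flanks; the exons of Postn, Tnc and Fbln2 were chosen after their values were seen. Alternatives covered DESeq2 1.42.0 size factors, spike-ins, FPKM, posterior means, thresholds and each pool alone.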

Additional observations from a re-analysis of the deposited data

How the results depend on the processing

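The ratios of all 10 genes kept their sign under 6 other scalings and count estimates, and Lum alone differed at 2-fold under each of them. The count minimums could not change this, because even Eln, with the fewest counts, lay above the highest minimum of 100. At 1.5-fold, 3 of the 10 differed (Postn, Tnc and Lum), beside 16.3% of tested genes. Spike-in scaling moved the median log2 ratio of the 10 genes to 0.61. That was 0.28 above the median of all tested genes, as with TMM. The distance could hardly change, since another scaling shifts the log2 ratios of all genes nearly alike. Levels compared without division by length changed the pairs: the log2 ratio of Fbln1 to Fbln2 was then 0.12 with overlapping ranges, that of Tnc to Postn 0.43 and that of Sparc to Fn1 -0.68. By expected counts the 10 genes held 0.358% of coding counts. Transcript results depend on whether TPM or counts are used and on the noncoding models: by counts Fn1-201 held 68.0% and Fn1-202 18.0%. EIIIA inclusion was 80.5% by counts and 99.5% over coding transcripts, EIIIB 85.1% and 88.5%, and the first variable part 96.2% and 95.0%. Of the values that answer a comparison, 54 of 68 alternatives kept them within their spread or side. That tally is no measure of robustness, because some settings could not move a value. For shares and inclusion, a single pool always lies within the SD around the mean of 2 pools.

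No paired analysis was possible because there is 1 group, and a ratio of the pools cannot be formed with 1 pool left out. Depth limits Eln, with 247 and 387 counts, more than the other 9 genes.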

Other observations

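Elastin was low in company with some of its partners; these genes were chosen after their values were seen. Lox, the enzyme that cross-links elastin, had 2.65 TPM in replicate 2, against 2.38 TPM in replicate 1, and Fbln5, which guides elastin onto microfibrils, had 1.32 TPM and 2.65 TPM. The related enzymes Loxl2, at 50.2 TPM and 42.5 TPM, and Loxl1, at 30.3 TPM and 29.4 TPM, were higher in both pools than Lox, while Loxl4 had 3 and 9 counts.

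Tnc held nearly all counts of the tenascin genes. Tnxb had 18 counts in replicate 2 and 10 in replicate 1, Tnr 0 and 4, and Tnn none, beside 5709 and 10737 for Tnc. Itga8, which encodes an integrin subunit that binds fibronectin and tenascin C, had 3.71 TPM in replicate 2, against 7.70 TPM in replicate 1. Its log2 ratio of TMM-scaled counts was -0.96, short of 2-fold, while its TPM values were more than 2-fold apart. Itga4, at 9.05 TPM and 9.37 TPM, and Itga9, at 7.07 TPM and 7.38 TPM, were lower in replicate 2 by TPM but not on TMM-scaled counts.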
